A study of Mus musculus with 6 samples.

Results

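The IFIT family of the mouse was followed here as the 6 genes *Ifit1*, *Ifit2*, *Ifit3*, *Ifit3b*, *Ifit1bl1* and *Ifit1bl2*. Members were found by gene name in the table of raw read counts, and each of the 6 had a locus of its own among 51499 loci, with 0 of them joined to another gene name. The libraries came from immortalized wild-type (WT) mouse embryonic fibroblasts (MEFs) harvested 72 h after transfection with either scrambled control siRNA (Scr) or *Yme1l* siRNA, with 3 independent cultures in each group. YME1L is a protease of the mitochondrial inner membrane, and the knockdown was compared with Scr to ask how its acute loss changes transcripts. By their labels both groups shared the same cells and the same transfection and differed in the siRNA alone. The WT cells were, according to the methods, a clone with loxP sites in both *Yme1l* alleles and no deletion, immortalized with large T antigen of SV40, whereas the labels describe the fibroblasts as 3T3 immortalized. All libraries thus stem from the same line. Separate knockdown sequences were not compared.

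IFIT proteins (interferon-induced proteins with tetratricopeptide repeats) are built almost entirely of helical repeats and are made in large amounts after type I interferon (IFN) signalling. IFNβ binds its receptor, and the kinases JAK1 and TYK2 then activate STAT2, which works with IRF9 in a complex that binds the IFN-stimulated response element (ISRE) upstream of its target genes. IFIT1 binds the 5′ end of RNAs whose cap lacks 2′-O methylation, a mark that host mRNAs carry and that many viral RNAs lack, and so blocks their translation. IFIT3 associates with other members and modulates their RNA binding, and IFIT2 binds RNA and the translation initiation factor eIF3.

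The 6 genes lie side by side on chromosome 19 within 99.3 kb (mm10, 34550694 to 34650009). *Ifit2* (plus strand, 34550694 to 34576419) comes first and is followed by *Ifit3* (plus, 34583531 to 34588731), *Ifit1bl1* (minus, 34592888 to 34601968) and *Ifit3b* (plus, 34607970 to 34613401). *Ifit1bl2* (minus, 34617049 to 34640743) and *Ifit1* (plus, 34640871 to 34650009) stand head to head, with 127 bases between them. All 6 are annotated as protein-coding in GENCODE M21, and none shares exon bases with another annotated gene.

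Promoter sequences from RefSeq (GRCm38.p6), running from 250 bases before to 50 bases after each start site, matched all 6 members in 9 windows. The ISRE core was searched as GAAANNGAAA on both strands. It was found in 5 of the 6 members, against 3.99% of 27025 genes with a window, and *Ifit2* was the member without it in either of its windows. Windows with 2 or more cores made up 0.225% of 32851 windows. The pair of cores upstream of *Ifit1* and those upstream of *Ifit1bl2* are the same bases (34640785 to 34640794 and 34640804 to 34640813), since both lie in the short interval that separates these genes. *Ifit3* and *Ifit3b* also held 2 cores each. The stretches below are shown because they carry those cores, which are in capitals and read on the plus strand as TTTCNNTTTC, or, for *Ifit1bl1*, in the direction of that gene. They span chr19:34640744-34640870, chr19:34583351-34583470, chr19:34607747-34607866 and, on the minus strand, chr19:34601969-34602088.
between *Ifit1bl2* and *Ifit1*: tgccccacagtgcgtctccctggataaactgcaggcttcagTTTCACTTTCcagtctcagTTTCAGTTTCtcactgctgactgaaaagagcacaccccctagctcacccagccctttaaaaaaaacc
upstream of *Ifit3*: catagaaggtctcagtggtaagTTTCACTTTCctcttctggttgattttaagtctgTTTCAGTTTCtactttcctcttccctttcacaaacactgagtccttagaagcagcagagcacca
upstream of *Ifit3b*: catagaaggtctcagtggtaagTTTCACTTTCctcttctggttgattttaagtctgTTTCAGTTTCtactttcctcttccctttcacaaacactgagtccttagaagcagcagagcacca
upstream of *Ifit1bl1*: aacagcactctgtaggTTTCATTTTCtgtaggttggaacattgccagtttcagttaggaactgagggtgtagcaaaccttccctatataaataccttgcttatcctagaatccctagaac

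The *Ifit3* and *Ifit3b* stretches were identical at all 120 bases. The core of the gamma-activated sequence (GAS, searched as TTCNNNGAA, which reads the same on both strands) occurred in 1 member, *Ifit2*, near the far end of its window, and in 9.55% of genes. A match to these letters is a description of the window and not of binding.

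The libraries held between 37260605 and 45205207 counts over all loci. *Yme1l1*, the targeted gene, stood at 170, 171 and 171 CPM (counts scaled to a common library size with TMM factors) in the Scr replicates 1 to 3 and at 31.6, 23.4 and 45 CPM in the *Yme1l* siRNA replicates (log2 fold change -2.36, SE 0.20, adjusted p = 3.87e-05 in edgeR's quasi-likelihood test). Of 9 fibroblast markers, 8 had tested loci, and *Thy1* had at most 1 count in any library. Their summed level ran from 34039 to 41215 CPM in Scr and from 18301 to 22735 CPM after *Yme1l* siRNA, with 7 of the 8 called lower, as were 29.6% of all loci tested. The 6 macrophage and leukocyte markers summed to 163 to 180 CPM in Scr and 242 to 255 CPM after *Yme1l* siRNA. Most of that came from *Csf1r*, while *Adgre1* was at 0 in all 6 libraries and *Ptprc* and *Itgam* had at most 3 counts. The 4 epithelial markers summed to at most 1.33 CPM and 3 endothelial markers to at most 1.92 CPM in any library, in both lists with higher sums after *Yme1l* siRNA. The part of these markers in the IFIT values was not tested, and in bulk RNA fewer cells of a type and less RNA per cell cannot be told apart.

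All 6 IFIT genes rose after *Yme1l* siRNA, by 2.24-fold (*Ifit2*) to 24.1-fold (*Ifit1bl2*). All 6 were called higher in edgeR at an adjusted p under 0.05, as were 28.4% of the 14499 loci tested, and all 6 rose at least 2-fold, which together with that threshold held for 8.18% of loci. Without *Yme1l* siRNA replicate 2, *Ifit2* fell below 2-fold, at a log2 fold change of 0.95. In the other direction 29.6% of loci were called lower. For each member the 3 *Yme1l* siRNA libraries lay above the 3 Scr libraries, a separation seen in 31.9% of loci. The median log2 fold change of the 6 was 2.33, and that of all loci tested was 0.01.

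*Ifit1*, the sensor of caps without 2′-O methylation, stood at 76.0, 61.6 and 31.7 CPM in the Scr replicates and at 294, 341 and 144 CPM in the *Yme1l* siRNA replicates. The lowest knockdown library was 1.90 times the highest Scr library, so the groups did not overlap. The log2 fold change was 2.2 (SE 0.37, adjusted p = 0.00116, edgeR). *Ifit1* was the member with the most reads in 5 of the 6 libraries, with *Ifit2* ahead of it in Scr replicate 3.

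*Ifit2*, which binds RNA and eIF3, had 47.3, 42.7 and 37.2 CPM in Scr and 104, 122 and 59.0 CPM after *Yme1l* siRNA. Its Scr libraries were close to each other, and *Yme1l* siRNA replicate 3 came within 1.25 times of the highest of them. Its log2 fold change was the lowest of the family, at 1.16 (SE 0.23, adjusted p = 0.00280, edgeR).

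*Ifit3*, the partner that modulates RNA binding by other members, had 50.1, 35.6 and 14.8 CPM in Scr and 231, 276 and 86.4 CPM after the knockdown. *Ifit3b*, its near-identical copy, had 16.8, 10.6 and 5.64 CPM in Scr and 68.1, 85.4 and 27.6 CPM after the knockdown. Within a group the highest library of either gene was 2.97 to 3.38 times the lowest, and the groups stayed apart. The log2 fold changes were 2.56 (SE 0.50, adjusted p = 0.00256) for *Ifit3* and 2.46 (SE 0.46, adjusted p = 0.00207) for *Ifit3b* in edgeR. Their transcripts were 97.8% identical over 1700 aligned bases, and 31.7% of the 100-base words of the *Ifit3* transcript also occurred in *Ifit3b*. The reads were paired-end and how reads that fit both copies were counted is not given in the sources used here, so the division between these copies is uncertain. Summed into 1 locus, the pair had a log2 fold change of 2.54 (edgeR, adjusted p = 0.00245).

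*Ifit1bl1* and *Ifit1bl2*, which resemble *Ifit1* and lie on the opposite strand to it, were barely detected in Scr. *Ifit1bl1* had 23, 9 and 15 counts in Scr and 62, 83 and 35 counts after *Yme1l* siRNA. *Ifit1bl2* had 6, 4 and 6 counts in Scr and 184, 196 and 43 counts after *Yme1l* siRNA. The lowest *Ifit1bl2* library after the knockdown was 7.18 times the highest in Scr, the widest gap of the family. The log2 fold change was 1.84 (SE 0.39, adjusted p = 0.00379) for *Ifit1bl1* and 4.59 (SE 0.63, adjusted p = 0.000385) for *Ifit1bl2* in edgeR. With so few counts in Scr these are the least precisely measured folds of the family in terms of counting error. Their transcripts were 89.0% identical over 2201 bases, though they shared few 100-base words (0.51% of those of *Ifit1bl1*), and *Ifit1* shared 3.29% of its words with *Ifit1bl2*. Summed into 1 locus, *Ifit1bl1* and *Ifit1bl2* had a log2 fold change of 3.16 (edgeR, adjusted p = 0.000649). Whether reads from *Ifit1* entered the *Ifit1bl2* count was not tested.

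**Figure D1:**
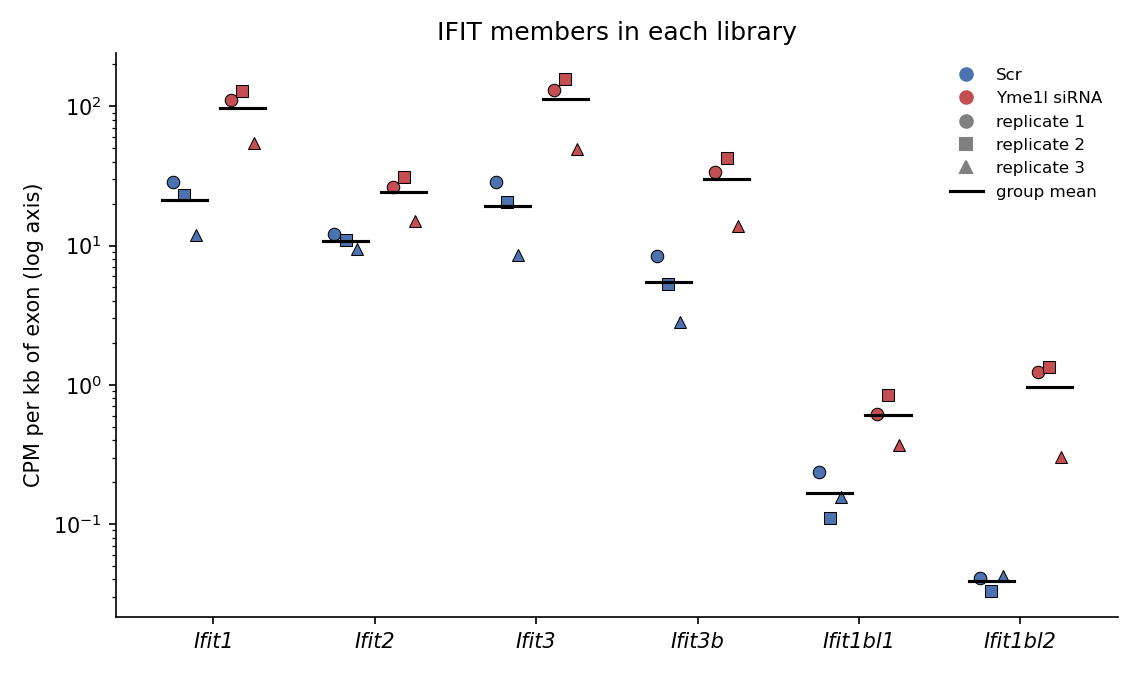
Level of each IFIT gene in each library, as CPM per kb of exon on a log axis, for Scr (blue) and Yme1l siRNA (red), with the replicate number given by the symbol and the group mean by a line. All 6 genes show 3 knockdown libraries above 3 Scr libraries, and knockdown replicate 3 (triangle) is the lowest of its group for every gene.

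Per kb of exon, levels could be set side by side between genes. In Scr, *Ifit1* (21.3 ± 8.50 CPM per kb, SD, n = 3) and *Ifit3* (19.2 ± 10.2) were the highest and their ranges overlapped, as did those of *Ifit3* and *Ifit2* (10.8 ± 1.29). *Ifit3b* followed at 5.50 ± 2.79, and *Ifit1bl1* (0.168 ± 0.0630) and *Ifit1bl2* (0.0388 ± 0.00509) came last, each apart from the gene above it. After *Yme1l* siRNA, *Ifit3* (113 ± 56.7 CPM per kb, SD, n = 3) and *Ifit1* (97.8 ± 38.6) again overlapped at the top. *Ifit3b* (30.2 ± 14.8) and *Ifit2* (24.2 ± 8.30) overlapped in the middle, below *Ifit1*. At the bottom *Ifit1bl2* (0.958 ± 0.570) overlapped with *Ifit1bl1* (0.610 ± 0.239). *Ifit2* and *Ifit3b* thus lay apart in Scr and overlapped after the knockdown, and the same was true of *Ifit1bl1* and *Ifit1bl2*.

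**Figure D2:**
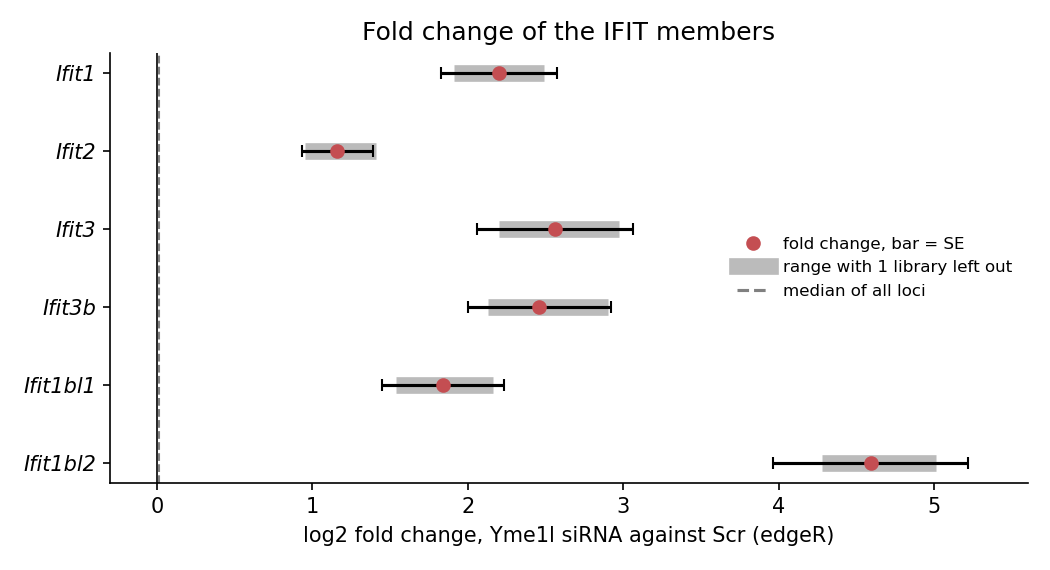
log2 fold change of each IFIT gene (point) from edgeR with an SE (bar) derived from its F statistic, and the range of the fold change when each of the 6 libraries was left out in turn (grey band). Values run from 1.16 for Ifit2 to 4.59 for Ifit1bl2, and every band lies above the dashed line at 0.01, the median of all tested loci.

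Libraries of the same group differed in the level of most or all members. Within the *Yme1l* siRNA group every member was highest in replicate 2, next in replicate 1 and lowest in replicate 3, with a spread from 2.07-fold (*Ifit2*) to 4.42-fold (*Ifit1bl2*). *Ifnb1*, which encodes IFNβ, had 37, 60 and 11 counts in those replicates and hence the same order. The residual *Yme1l1* level had the reverse order, with the lowest value in replicate 2. In Scr, *Ifit1*, *Ifit2*, *Ifit3* and *Ifit3b* were all highest in replicate 1 and lowest in replicate 3. The scarce *Ifit1bl1* was highest in replicate 1 and lowest in replicate 2, and *Ifit1bl2* differed by no more than 1.28-fold among the Scr libraries. *Ifnb1* had at most 3 counts in any Scr library, too few to give an order there, and *Yme1l1* varied little. These are orders of 3 libraries, given as a description.

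Summed over the family, the level was 191, 151 and 89.9 CPM in the Scr replicates and 702, 831 and 319 CPM in the *Yme1l* siRNA replicates. The groups did not overlap, and the mean rose 4.29-fold, from 144 ± 50.8 to 617 ± 266 CPM (SD, n = 3 each). A two-sided exact permutation test gave p = 0.1, the smallest that 3 libraries against 3 allow. As a share of all counts the family took 0.00905 to 0.0183% of the Scr libraries and 0.0326 to 0.0857% of the knockdown libraries.

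The make-up of the family in these 6 libraries differed between the groups, which is given as a description. *Ifit2* supplied 24.8, 28.3 and 41.4% of IFIT counts in the Scr replicates and 14.8, 14.7 and 18.5% in the knockdown replicates. Over the 6 libraries its share fell at each step as the summed level of the family rose, a relation that includes *Ifit2* in both quantities. *Ifit1* supplied 39.8, 40.8 and 35.3% in Scr and 41.9, 41.0 and 45.2% after the knockdown, so that its shares lay apart by a narrow margin. *Ifit3* supplied 26.2, 23.6 and 16.5% in Scr and 32.9, 33.2 and 27.1% after the knockdown. *Ifit1bl2* rose from at most 0.158% to at least 0.320% of the family's counts. The shares of the remaining members overlapped between groups. *Ifit3b* supplied 8.79, 7.02 and 6.27% in Scr and 9.70, 10.3 and 8.66% after the knockdown. *Ifit1bl1* supplied 0.278, 0.165 and 0.395% in Scr and 0.199, 0.230 and 0.260% after the knockdown. Shares of a whole depend on each other, so a fall in 1 share raises others.

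**Figure D3:**
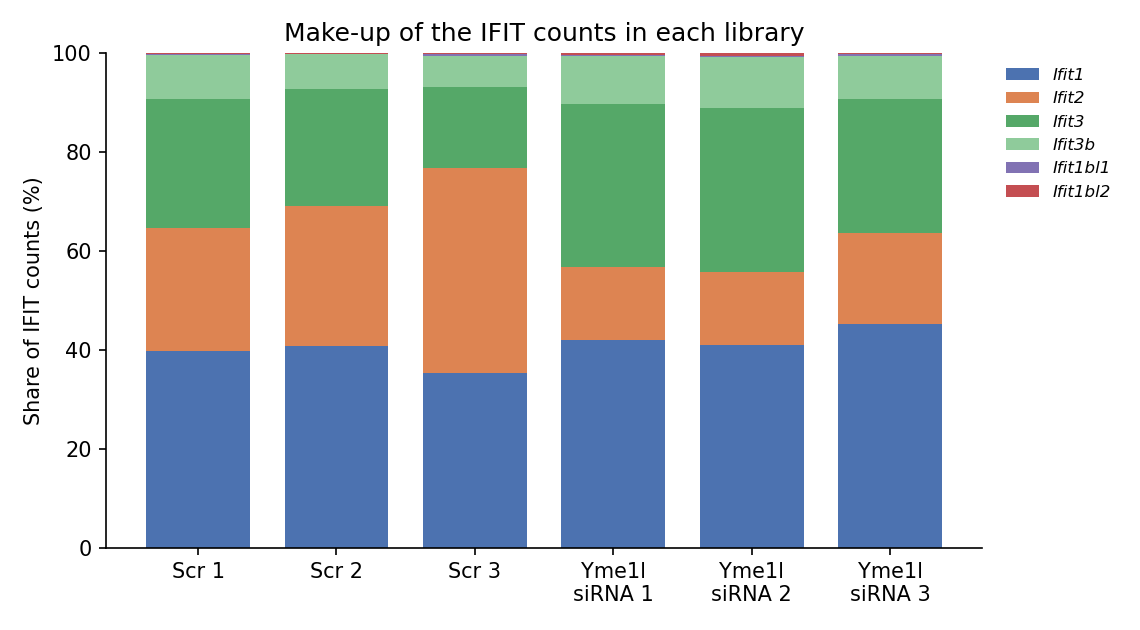
Share of the summed IFIT counts supplied by each member, in percent, as 1 stacked bar for each of the 6 libraries. The Ifit2 share is 24.8 to 41.4% in the Scr bars and 14.7 to 18.5% in the Yme1l siRNA bars, and Ifit1bl1 and Ifit1bl2 are too small to stand out.

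Ratios between members within a library need no scaling between libraries, and all 15 pairs were compared. In 9 pairs the log2 ratio of counts did not overlap between the groups, and each of these 9 included *Ifit2* or *Ifit1bl2*. How often ratios between other loci lay apart was not computed, so this count is not read as a trait of the family. The *Ifit2* to *Ifit1* log2 ratio was -0.68, -0.53 and 0.23 in Scr and -1.50, -1.48 and -1.29 after the knockdown. *Ifit2* was lower relative to each of the other 5 members after *Yme1l* siRNA, with differences of -0.75 (against *Ifit1bl1*) to -3.26 (against *Ifit1bl2*) on the log2 scale. The *Ifit1bl2* to *Ifit1* log2 ratio, for the genes with the shared interval shown above, was -9.10, -9.12 and -7.80 in Scr and -6.15, -6.24 and -7.14 after the knockdown. *Ifit1bl2* was higher relative to each of the other 5 members. Among *Ifit1*, *Ifit3*, *Ifit3b* and *Ifit1bl1* the ratios of all 6 pairs overlapped between groups. The *Ifit3* to *Ifit3b* log2 ratio moved least, from 1.57 ± 0.18 to 1.70 ± 0.06 (SD, n = 3), although these copies may share reads. The exact permutation p (two-sided) was 0.1 for each of the 9 pairs, the smallest possible with 3 against 3 libraries. After adjustment over the 15 pairs it was 0.167. No pair could have passed the threshold with so few libraries, so this test decides nothing about the ratios.

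The tested loci nearest to the cluster did not move as a block with it. Of the 5 on each side, 4 were higher, 2 lower and 4 not called, beside backgrounds of 28.4% higher and 29.6% lower. *Lipa*, a lysosomal lipase gene 23.2 kb before *Ifit2*, fell from 136 ± 8.66 to 78.2 ± 17.5 CPM (log2 fold change -0.80, adjusted p = 0.00204, edgeR). *Pank1*, a pantothenate kinase gene 161 kb beyond *Ifit1*, was at 6.36 ± 1.07 and 4.94 ± 0.416 CPM and was not called (adjusted p = 0.0758, edgeR). Farther out, *Acta2* (smooth muscle actin, 295 kb before the cluster) was lower at a log2 fold change of -1.41, whereas *Kif20b* (0.92), 272 kb beyond it, was higher. *Rpp30* (0.66), *Ankrd1* (3.39) and *Pcgf5* (1.27) were also higher, but they lie as far as 1434, 1462 and 1698 kb beyond the cluster. *Stambpl1* (0.07, 310 kb before the cluster), the locus that joins *Lipo2*, *Lipo3* and *Lipo4* (-0.22, 782 kb before), and *Fas* (0.42, 223 kb before) did not pass the test. *Fas*, which encodes a death receptor, passed it as higher, at 0.74 and an adjusted p of 0.0226 in edgeR, once *Yme1l* siRNA replicate 3 was left out.

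**Figure D4:**
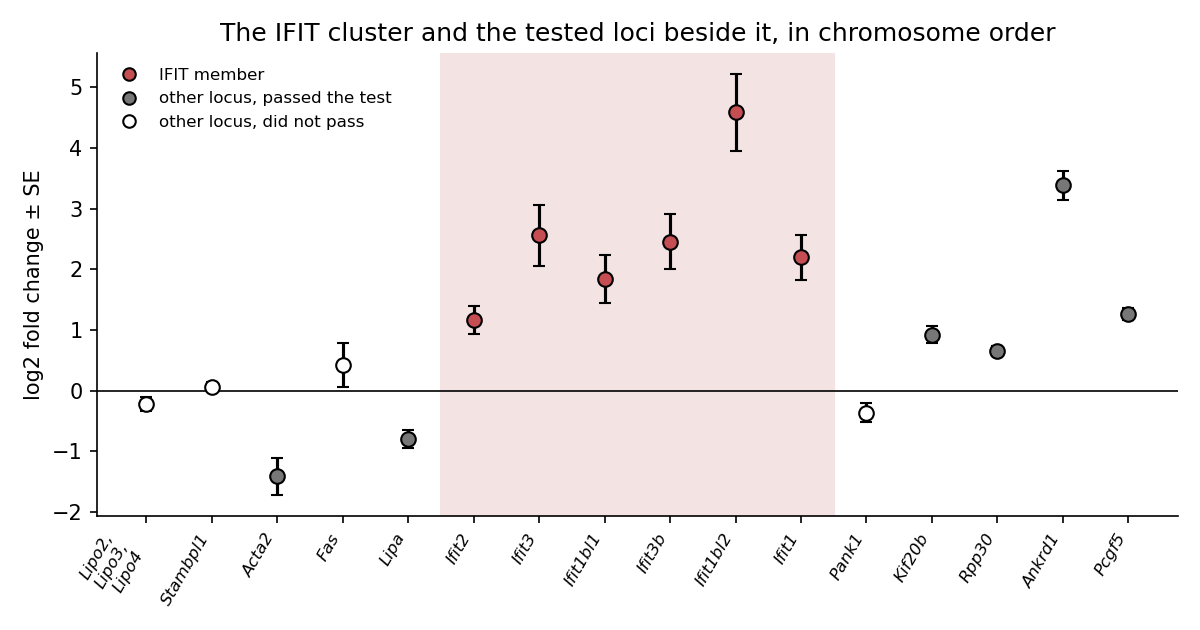
log2 fold change with SE for the 6 IFIT genes (red, shaded) and the 5 nearest tested loci on each side, in chromosome order and not to scale. The outermost loci lie 782 kb before and 1698 kb beyond the cluster. The loci adjoining the cluster, Lipa and Pank1, have log2 fold changes of -0.80 and -0.36.

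The IFN pathway upstream of the family was read from a list of 14 genes for the cytokines, the receptor and its signalling, of which 13 had tested loci. Of these, 8 were higher, 2 lower and 3 not called, where 28.4% of all loci tested were higher and 29.6% lower. The median log2 fold change was 0.54, also with *Ifnb1* set to its lower bound. *Ifnb1* was at 3, 1 and 0 counts in Scr, at or below the 3 counts taken as the detection floor of a library, and was at least 11.1-fold higher after *Yme1l* siRNA (adjusted p = 0.00233, edgeR). *Stat2* and *Irf9*, for parts of the ISRE-binding complex, rose. *Stat2* went from 48.3 ± 15 to 151 ± 62.3 CPM (log2 fold change 1.64, adjusted p = 0.00309), and the *Irf9* locus, joined with *Rnf31*, from 74.7 ± 17.2 to 170 ± 29.1 CPM (log2 fold change 1.19, adjusted p = 0.000677; edgeR throughout). *Irf7*, an IFN-inducible activator of IFN genes, rose at a log2 fold change of 2.98 and *Usp18*, a negative regulator of the receptor, at 2.99. *Irf3*, which is activated by phosphorylation, was at 37.9 ± 3.46 and 33.0 ± 1.16 CPM and did not pass the test (adjusted p = 0.0635, edgeR). The receptor kinases *Jak1* (log2 fold change -0.20) and *Tyk2* (-0.27) were called lower. These calls were not stable, since the 2 loci became 0 without any 1 of the Scr replicates or without *Yme1l* siRNA replicate 1, and 1 without *Yme1l* siRNA replicate 2 or 3.

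Transcripts for receptors and adaptors that detect nucleic acids rose in 8 of 11 cases, with 0 lower (28.4% and 29.6% of all loci). Their median log2 fold change was 1.26. *Mb21d1*, which encodes the DNA sensor cGAS, rose from 19.3 ± 1.51 to 54.1 ± 6.00 CPM (log2 fold change 1.49, adjusted p = 1.46e-05, edgeR). *Ifih1*, for the RNA sensor MDA5, rose at a log2 fold change of 1.68 and *Trim25*, for a ubiquitin ligase that acts on RIG-I, at 1.08. The 3 not called were *Mavs* (log2 fold change -0.21), *Tmem173* (0.28) and *Ikbke* (-0.18). *Tmem173*, which encodes STING, passed as higher when *Yme1l* siRNA replicate 3 was left out (0.44, adjusted p = 0.00655, edgeR), and *Ikbke*, for a kinase related to TBK1, passed as lower when *Yme1l* siRNA replicate 2 was left out (-0.23, adjusted p = 0.0442, edgeR).

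Transcripts for other antiviral proteins that act on RNA rose in 12 of 13 cases, with 0 lower (28.4% and 29.6% of all loci). Their median log2 fold change was 3.18, beside 2.33 for the IFIT genes. The smallest adjusted p-values belonged to genes of the oligoadenylate synthetase family, whose products bind double-stranded RNA or are related to those that do. *Oas3* had a log2 fold change of 4.40 (SE 0.39, adjusted p = 4.27e-05), *Oasl1* of 4.37 (SE 0.43, adjusted p = 6.83e-05) and *Oas1g* of 5.06 (SE 0.52, adjusted p = 8.21e-05) in edgeR. The call of *Isg20* (log2 fold change 0.49, adjusted p = 0.0267, edgeR) was not stable. It was lost when any 1 library other than *Yme1l* siRNA replicate 3 was left out.

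The cap on which IFIT1 binding depends is made by 5 listed enzymes and cofactors. Of their genes 3 were higher and 2 lower, with a median log2 fold change of 0.49. Over all loci 28.4% were higher and 29.6% lower, so counts in so short a list say little. The 2′-O methyltransferase genes were both higher, *Cmtr2* at a log2 fold change of 0.74 (SE 0.09, adjusted p = 0.000171) and the locus of *Cmtr1*, joined with *Gm28043*, *Rnf8* and *Tbc1d22b*, at 0.58 (SE 0.07, adjusted p = 0.000256, edgeR). *Rngtt*, for the capping enzyme, was higher at 0.49. The genes for the N7 methyltransferase, *Rnmt* (log2 fold change -0.40), and for its activating subunit, *Fam103a1* (-0.57), were lower. All 5 lay between -0.57 and 0.74, and each of the 6 IFIT genes lay above them, at 1.16 or more.

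Of 14 genes for eIF3 subunits, the initiation factor that IFIT proteins contact, 6 were higher, 1 lower and 7 not called, with a median log2 fold change of 0.12. Over all loci 28.4% were higher and 29.6% lower, and counts in so short a list say little here as well. *Eif3d* (log2 fold change 0.69), *Eif3b* (0.55) and *Eif3g* (0.44) had the smallest adjusted p-values, and *Eif3f* was lower (-0.23). The *Eif3f* call was lost without Scr replicate 1 (adjusted p = 0.0827), Scr replicate 2 (0.0849) or *Yme1l* siRNA replicate 1 (0.107, edgeR). Among the higher loci, *Eif3j1* (log2 fold change 0.71, adjusted p = 0.0448, edgeR) lost its call without Scr replicate 2 or 3 or *Yme1l* siRNA replicate 1 or 2.

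**Figure D5:**
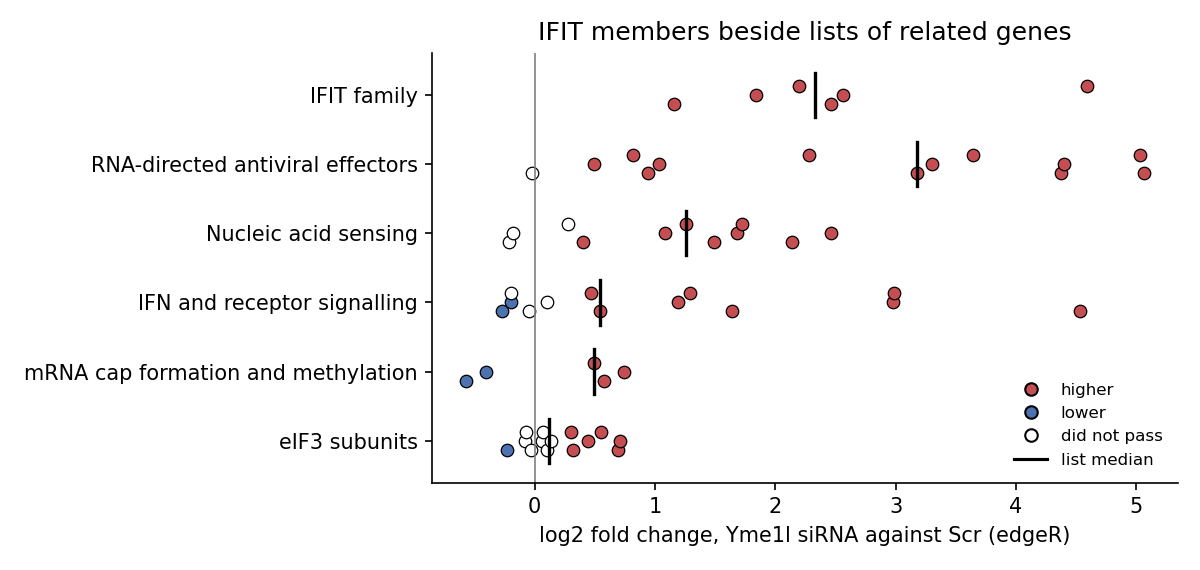
log2 fold change of each tested gene in the IFIT family and in 5 lists of related genes, coloured by whether edgeR called it higher (red), lower (blue) or neither (white), with each list's median as a line. The IFIT median is 2.33, that of other RNA-directed effectors 3.18 and that of eIF3 subunits 0.12; Ifnb1, the rightmost point of its list, is a fitted value against a group at the detection floor.

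The loci whose pattern over the 6 libraries was most like that of the family were ranked by Pearson's r of log2 CPM with the mean of the members, among 11437 loci whose log2 CPM averaged 1 or more. The closest were *Ly6e* (r = 0.9996), a membrane protein gene of the Ly6 family, and *H2-T22* (r = 0.9992) and *H2-K1* (r = 0.9987), which encode MHC class I molecules. *Parp12* (r = 0.9987), for an ADP-ribosyltransferase, and the locus that joins *Amy1* and *Rnpc3* (r = 0.9984) completed the 5. They were higher after *Yme1l* siRNA at log2 fold changes of 1.96 (*Ly6e*), 1.47 (*H2-T22*), 2.61 (*H2-K1*), 1.67 (*Parp12*) and 0.50 (*Amy1* with *Rnpc3*). The points share their libraries and 2 groups, so r this high is a description of these 6 libraries.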

How the data were processed

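Total RNA from 6 cultures was poly-A selected and made into stranded libraries, which were sequenced as paired ends of 100 bases. The authors mapped reads to mm10 with HISAT2 2.0.4 and assembled transcripts with StringTie 1.3.3. Raw counts per locus were deposited by the authors without normalization; the counting program and its handling of strand and multiply mapped reads are not given in the sources used here. A second deposited table holds FPKM values made by the authors with Cuffdiff 2.2.1, 1 per group with the 3 libraries combined. Its fold change, test statistic, p and q columns were not used.

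All 6 columns were assigned to samples from their names. Replicates of a group differed beyond sampling noise (chi-square per degree of freedom 9.7 to 69.9), and each was counted. Loci passing filterByExpr (minimum count 10, minimum total 15; 14499 loci) were compared with edgeR 4.0.16 in R 4.3.3 (TMM factors, quasi-likelihood test, no covariates, common biological coefficient of variation 0.131), with Benjamini-Hochberg adjustment over all of them and a threshold of 0.05. On data simulated from these libraries, 197 of 14336 tested loci carried 2-fold changes. The test recovered 159 of them (80.7%), with 13 false calls. Far fewer loci were changed there than were called in the real data, so false calls in the real data were not measured. DESeq2 1.42.0 and limma-voom (limma 3.58.1) were alternatives. CPM per kb used the union of GENCODE M21 exons. Transcripts were aligned with BLAST 2.17.0. Values over groups are mean ± SD. The p-values measure the spread between cultures taken as 1 line. A group at up to 3 counts per library was set to 3 counts for a lower bound, and counting error alone is covered by it.

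Named genes were all members, the targeted gene, a fixed set of IFN signalling genes and *Cmtr1*, in each list the 3 with the smallest adjusted p and any called against the direction of most, the 5 nearest tested loci on each side of the cluster and the 5 loci most alike in pattern. Some genes that this rule names are not reported here. Others named were chosen after their values were seen. The members, lists and rules were chosen with earlier results of these data known.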

Additional observations from a re-analysis of the deposited data

How the results depend on the processing

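All IFIT genes tested were called higher under every alternative run: DESeq2, limma-voom, median-of-ratios or upper-quartile factors, no filter on low counts, a mean of at least 50 counts (where *Ifit1bl1* was not tested), a threshold of 0.01, each library left out in turn, and, chosen after seeing the data, both libraries numbered 3 left out. The median log2 fold change, 2.33, ran from 2.02 to 2.68 with 1 library left out, and the log2 fold of the summed level, 2.10, from 1.84 to 2.41. Replicate numbers are shared between groups, but same-numbered libraries deviated together weakly (r = 0.04, 0.12 and 0.19, with 5 of 6 libraries correlating best with their own number), so they were not treated as pairs; with the replicate block all 6 IFIT genes were called higher, with a median of 2.32, and over all loci 4227 were higher and 4460 lower, against 4123 and 4288 without it. Some counts of higher genes in the lists moved. The 12 higher RNA-directed effectors became 11 at a threshold of 0.01, and 11 to 12 with 1 library left out. The 6 higher eIF3 loci became 5 under DESeq2 or at a threshold of 0.01, and 5 to 6 with 1 library left out. The 8 higher sensing loci became 9 without *Yme1l* siRNA replicate 3 or without both libraries numbered 3. The 8 higher IFN signalling loci became 7 of 12 tested at a mean of at least 50 counts. Small counts of lower genes also moved. The 2 lower IFN signalling loci became 0 at a threshold of 0.01 or a mean of at least 50 counts, 1 with no filter, median-of-ratios factors, upper-quartile factors or without both libraries numbered 3, 3 under the replicate block, and 0 to 1 with 1 library left out. Lower sensing loci went from 0 to 1 under the replicate block, and to between 0 and 1 with 1 library left out. The 1 lower eIF3 locus became 0 at a threshold of 0.01, 2 without both libraries numbered 3, and 0 to 1 with 1 library left out. The cause was not tested. Counts of 4 to 23 in Scr limit the precision for *Ifit1bl1* and *Ifit1bl2*.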

Other observations

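The authors' pooled FPKM values, which carry no replicate error, gave for *Ifit1* 22.1 in Scr and 101 after *Yme1l* siRNA, for *Ifit2* 12.0 and 26.2, for *Ifit3* 20.8 and 122, and for *Ifit3b* 5.85 and 32. For *Ifit1bl1* they were 0.182 and 0.660, and for *Ifit1bl2* 0.0416 and 0.993. The processed pseudogene AC016791.2 lies within *Ifit1bl2* on the opposite strand and shares 0 exon bases with it.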
